A study of Homo sapiens with 4 samples.

Results

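The genes that encode collagen chains were examined in DAOY, a cell line established from a human medulloblastoma of the cerebellum. Of the 20363 genes in the raw count table, 44 carried a symbol made of COL, a type number, the letter A and a chain number, and all 44 were taken as members. Messenger RNA had been sequenced in 4 libraries, 1 for each group, with no replicate. CTL_DMSO and CTL_SAG were control cells given the vehicle dimethyl sulfoxide or SAG, a small molecule that activates the Sonic hedgehog pathway through Smoothened (SMO). ZNF521_DMSO and ZNF521_SAG were DAOY cells that overexpressed the zinc finger co-factor ZNF521, given the same treatments. In the methods of the study, the ZNF521 vector is lentiviral, with an EGFP reporter, and cells were starved before SAG. The series description calls the controls wild type while the methods name an empty vector, so that effects of transduction and of ZNF521 cannot be told apart if the controls were untransduced. Dose and hours for the sequenced cultures are not given in the labels. Differences between libraries also hold culture and library preparation, which cannot be told apart from the groups.

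The labels were first checked with 2 genes. ZNF521 had 714 and 751 normalized counts in CTL_DMSO and CTL_SAG, against 2013 and 2072 in ZNF521_DMSO and ZNF521_SAG. GLI1, a transcription factor that Hedgehog signalling induces, had 75.4 and 44.2 normalized counts with DMSO and 324 and 318 with SAG. A normalized count is the read count of a gene divided by 1 size factor per library. Total counts ran from 12294833 to 16314685. Of the neuronal and granule precursor markers, ATOH1 was at 0.844 to 1.13 and BARHL1 at 0 in 3 of the 4 libraries, while ZIC1 (241 to 303), PAX6 (294 to 307) and ZIC2 (274 in CTL_DMSO, 176 to 191 elsewhere) were present. Of the mesenchymal markers, vimentin (25013 to 29673) and THY1 (2497 to 2840.0) were abundant and PDGFRA (33.2 to 111), LUM (69.4 to 141) and DCN (31.6 to 76.4) were low. PDGFRB (327 to 664), ACTA2 (437 to 734) and TAGLN (888 to 1024) lay between, and fibronectin is given further below. The 4 leukocyte markers together reached 15.2 to 22.1 normalized counts and the 3 epithelial markers 27.1 to 53.5.

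Collagens are proteins of the extracellular matrix in which 3 chains wind into a triple helix. The fibrillar chains, such as those of types I, III and V, build the cross-striated fibrils of connective tissue. Type IV chains form the sheet-like network of basement membranes, type VI chains form beaded filaments around cells, and the FACIT chains sit on the surface of fibrils, from which their name (fibril-associated collagens with interrupted triple helices) derives. Other chains span the cell membrane, anchor the epidermis or carry sugar chains in basement membrane zones. Most brain tissue holds little fibrillar collagen, which there belongs to vessels and meninges.

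Promoter sequence was available for 32 of the 44 genes, in 44 windows of 250 bases upstream of a start. COL1A1, COL1A2 and COL3A1 were among the genes without a window. The stretch upstream of the RefSeq start (GRCh38.p14) is shown for 2 fibrillar genes with lower values outside CTL_DMSO, for the gene with the steepest opposite pattern, and for the divergent pair COL4A1 and COL4A2, whose shared stretch lies between both RefSeq starts (the GENCODE gene of COL4A2 begins further upstream and covers it). Capitals mark any of 4 motifs on either strand, a GLI motif (GACCACCCA), the CCAAT box, a TATA box (TATAAA) and the GC box (GGGCGG), and these letters are not sites of measured binding. The COL5A1 stretch lies at chr9:134641553-134641802 (plus strand), that of COL5A3 at chr19:10010505-10010754 (minus strand), that of COL15A1 at chr9:98943657-98943906 (plus strand) and that of the type IV pair at chr13:110307158-110307283 (written on the strand of COL4A2). The COL15A1 stretch also lies within its GENCODE gene, which begins further upstream, at position 98943179.
COL5A1: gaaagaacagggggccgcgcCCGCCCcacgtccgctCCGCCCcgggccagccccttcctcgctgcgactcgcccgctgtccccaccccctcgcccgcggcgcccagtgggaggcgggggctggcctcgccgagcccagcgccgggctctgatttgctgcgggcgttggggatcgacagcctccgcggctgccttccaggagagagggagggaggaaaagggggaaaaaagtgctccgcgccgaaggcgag
COL5A3: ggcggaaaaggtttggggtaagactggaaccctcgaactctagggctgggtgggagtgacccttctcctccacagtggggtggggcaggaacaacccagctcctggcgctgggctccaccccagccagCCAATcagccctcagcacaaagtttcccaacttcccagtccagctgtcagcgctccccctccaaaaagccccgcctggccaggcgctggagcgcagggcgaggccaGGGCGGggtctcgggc
COL15A1: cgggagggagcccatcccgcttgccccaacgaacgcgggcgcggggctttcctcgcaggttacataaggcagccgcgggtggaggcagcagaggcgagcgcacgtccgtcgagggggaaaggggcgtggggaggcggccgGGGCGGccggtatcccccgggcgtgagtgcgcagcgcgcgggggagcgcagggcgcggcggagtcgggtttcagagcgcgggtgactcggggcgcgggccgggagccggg
COL4A1 and COL4A2: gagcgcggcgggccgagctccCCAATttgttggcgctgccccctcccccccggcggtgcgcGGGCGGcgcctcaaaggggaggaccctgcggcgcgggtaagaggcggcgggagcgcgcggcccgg
COL5A1 holds 2 GC boxes, COL5A3 holds 1 CCAAT box and 1 GC box, COL15A1 holds 1 GC box, and the stretch between COL4A1 and COL4A2 holds 1 CCAAT box and 1 GC box. The GC box occurred in 54.5% of the 44 collagen windows and in 42.6% of all 35093 windows. The CCAAT box occurred in 27.3% against 32.0%, the TATA box in 18.2% against 10.7% and the GLI motif in 0% against 0.199%. Only exact matches were read. A motif this rare is seldom met in 44 windows, so that its absence says nothing about collagen genes. None of the 4 motifs contains another. The median GC content was 64.2% in the collagen windows against 58% in all windows.

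Collagen chains took 0.839% of all counts in CTL_DMSO (exact 95% interval 0.834 to 0.844%), 0.483% in CTL_SAG (0.479 to 0.487%), 0.454% in ZNF521_DMSO (0.451 to 0.458%) and 0.463% in ZNF521_SAG (0.460 to 0.466%). Intervals here and for every ratio cover counting error only and say nothing of variation between cultures. The fibrillar genes took 0.425% in CTL_DMSO and 0.191 to 0.203% in the other libraries. Type VI genes took 0.286% against 0.168 to 0.192%, and type IV genes 0.0772% against 0.0468 to 0.0515%. The share of the 10 FACIT genes was 0.0227% against 0.0162 to 0.0186%. Without both type I chains, the collagen share was 0.654% in CTL_DMSO and 0.379 to 0.413% in the others, a comparison added after the values were seen. The 3 short-chain genes (types VIII and X) took 0.00404% in CTL_DMSO, 0.00406% in CTL_SAG, 0.00483% in ZNF521_DMSO and 0.00530% in ZNF521_SAG, mostly through COL8A1, while COL10A1 was highest in CTL_DMSO, at 17.1 normalized counts.

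Levels of different chains were compared as normalized counts per kilobase of the canonical transcript. COL6A2 was the highest of the 44 genes in each library, with 4475 per kilobase in CTL_DMSO and 2629 to 3144 in the others, and COL3A1 was next, with 3505 and 1703 to 2136. COL1A1 was the third in CTL_DMSO, at 2691, and the fifth in each other library, at 831 to 899. COL6A1 (2654 in CTL_DMSO, 1509.5 to 1780.0 elsewhere) and COL1A2 (1793 and 951 to 1019) completed the leading group. In CTL_DMSO, COL1A1 and COL6A1 lay side by side, as did COL5A1 (1156) and COL6A3 (1154). Chains of cartilage, such as COL2A1 (19.5 per kilobase in CTL_DMSO) and COL9A1 (1.36), were far lower.

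**Figure D1:**
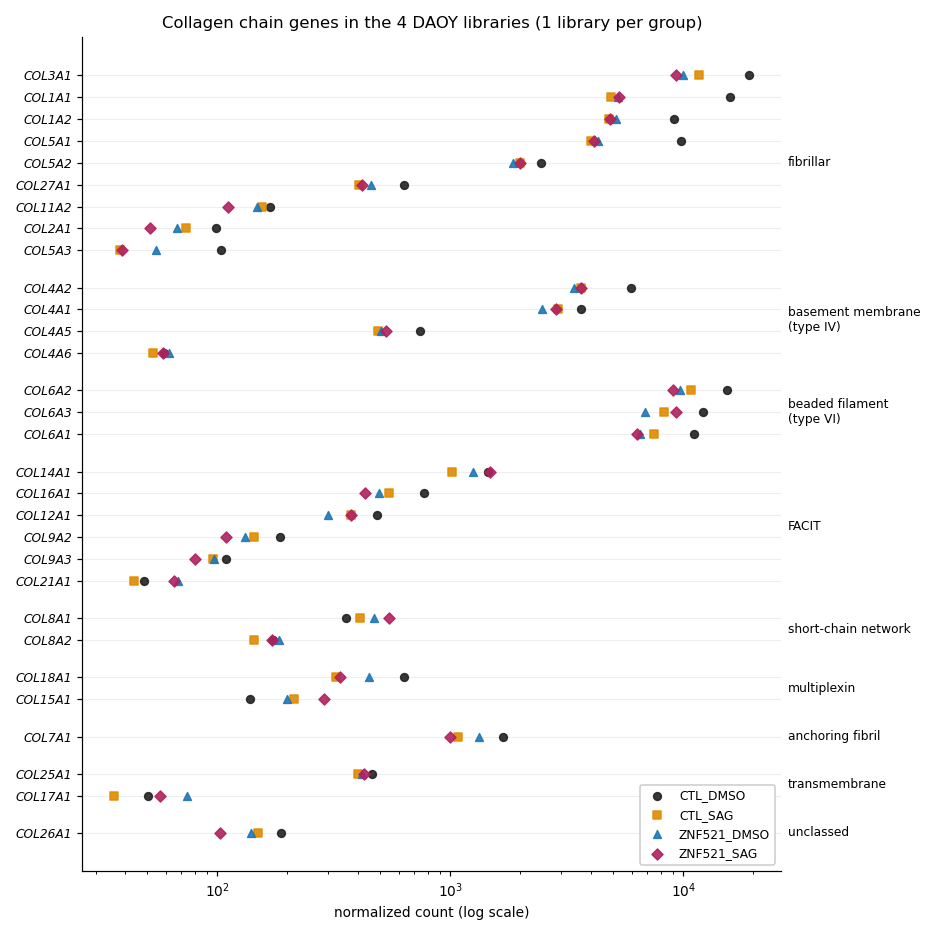
Normalized count (log scale) of each of the 30 collagen genes averaging 50 or more, grouped by class, with 1 point per library. The black circle of CTL_DMSO lies to the right of the other points in 23 genes, among them all 9 fibrillar genes plotted, and to the left of them in COL8A1 and COL15A1.

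CTL_DMSO held the highest of the 4 normalized counts in 28 of the 44 genes, for which the share over all genes was not read. Of these 28, 5 averaged under 50 normalized counts. Of the 30 genes whose normalized counts averaged 50 or more, CTL_DMSO was the highest in 23 and the lowest in 2, COL8A1 and COL15A1. Over all 12094 genes that passed this filter, CTL_DMSO was the highest in 33.3% and the lowest in 41.2%. It was the highest in 9 of 9 fibrillar genes, 3 of 4 type IV genes, 3 of 3 type VI genes and 4 of 6 FACIT genes. The fibrillar gene COL5A3 stood close to the filter with a mean of 58.8 and passed mainly through CTL_DMSO. COL17A1 (mean 54.2) and COL21A1 (mean 56.3) passed mainly through the ZNF521 libraries. Counts over the genes of this filter are therefore a description. COL24A1 (mean 45.3) and COL13A1 (mean 43.9) lay just outside.

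Against CTL_DMSO, 10 of the 30 genes were at least 1.5-fold lower in CTL_SAG, beside 6.86% of all genes that passed the filter. The count was 11 in ZNF521_DMSO, beside 5.48%, and 16 in ZNF521_SAG, beside 6.95%. In the other direction, CTL_SAG had 1 gene at least 1.5-fold higher (COL15A1), beside 7.68%, ZNF521_DMSO had 0, beside 4.98%, and ZNF521_SAG had 2 (COL8A1 and COL15A1), beside 8.28%. Median log2 ratios of the 30 genes were -0.49, -0.49 and -0.60 in that order, while those of all genes were 0.034, 0.038 and 0.032. All 3 comparisons use the same CTL_DMSO library, so that they are not independent of each other. CTL_DMSO was then left out, a step added after the values were seen. ZNF521_SAG against CTL_SAG had 0 collagen genes at least 1.5-fold lower, beside 0.529% of all genes, and 1 higher (COL17A1), beside 0.728%. COL17A1 passed the filter mainly through the ZNF521 libraries. ZNF521_SAG against ZNF521_DMSO had 0 lower, beside 0.777%, and 0 higher, beside 0.628%. Median log2 ratios of the collagen genes were 0.015 and -0.086. With 1 library in each group, none of these ratios has a replicate check, and no test was made on them.

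**Figure D2:**
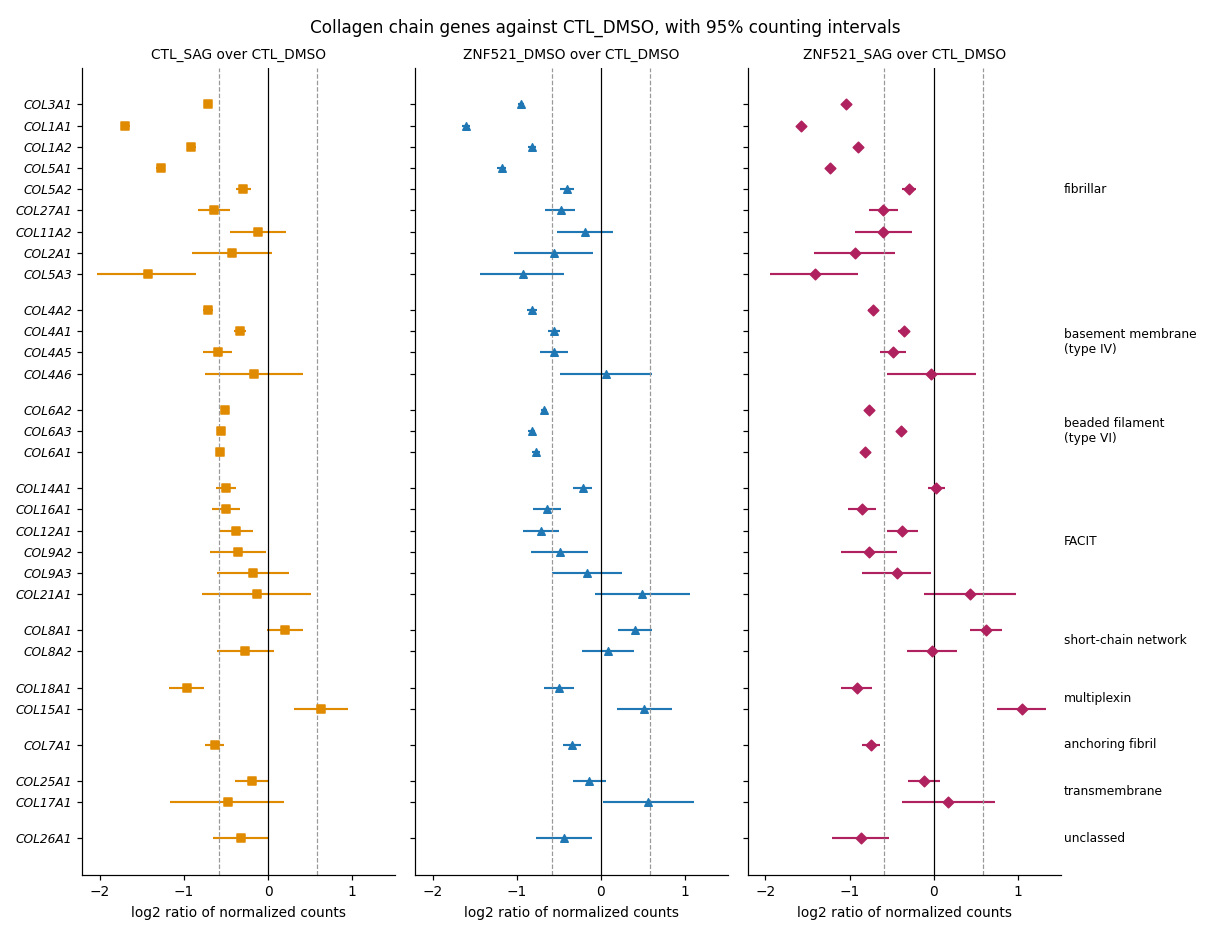
Log2 ratio of normalized counts of each collagen gene in CTL_SAG, ZNF521_DMSO and ZNF521_SAG over CTL_DMSO, with exact 95% intervals that cover counting error only. Dashed lines mark 1.5-fold; 10, 11 and 16 genes lie at or beyond the left line, and COL15A1 lies to the right of zero in each panel.

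Fibrillar genes included COL1A1, which had the largest decrease of the 30 genes in each comparison, and each of the 9 that passed the filter was lower than CTL_DMSO in all 3 other libraries. At least 1.5-fold lower were 6 in CTL_SAG, 5 in ZNF521_DMSO and 8 in ZNF521_SAG, with median log2 ratios of -0.71, -0.82 and -0.94. COL1A1, the α1 chain of type I collagen (chr17:50184101-50201632, minus strand, hg38), had 15912 normalized counts in CTL_DMSO, 4913 in CTL_SAG, 5241 in ZNF521_DMSO and 5316 in ZNF521_SAG. CTL_DMSO stood alone, and the other libraries lay within 1.08-fold of each other. The fold decrease from CTL_DMSO was 3.24 in CTL_SAG (95% interval 3.13 to 3.35), 3.04 in ZNF521_DMSO (2.94 to 3.13) and 2.99 in ZNF521_SAG (2.91 to 3.08). COL1A2, the α2 chain of the same trimer (chr7:94394895-94431227, plus strand), had 9095, 4822, 5167 and 4863 normalized counts in the same order, again with 1 high library and the other 3 within 1.07-fold. Its fold decrease was 1.89, 1.76 and 1.87.

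COL5A1, the α1 chain of type V collagen that helps to start type I fibrils (chr9:134641803-134844843, plus strand), followed the same pattern. It had 9759 normalized counts in CTL_DMSO, 4023 in CTL_SAG, 4316 in ZNF521_DMSO and 4155 in ZNF521_SAG, a decrease of 2.43-fold, 2.26-fold and 2.35-fold. Its partner chain COL5A2 had 2446, 1995, 1850.1 and 2001, and the decrease was 1.23-fold, 1.32-fold and 1.22-fold. The third type V chain, COL5A3, was rare, with 104, 38.3, 54.5 and 38.8 normalized counts, with ratios to CTL_DMSO of 0.370 (95% interval 0.244 to 0.550), 0.527 (0.371 to 0.741) and 0.375 (0.259 to 0.536). The promoter stretches of COL5A1 and COL5A3 printed above are both GC-rich, at 74% and 66%.

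COL3A1, whose homotrimer forms the thin fibrils of soft tissue (chr2:188974373-189012746, plus strand), had 19242 normalized counts in CTL_DMSO, 11726 in CTL_SAG, 9952 in ZNF521_DMSO and 9351 in ZNF521_SAG. It also differed among the other libraries, where ZNF521_SAG was 1.25-fold lower than CTL_SAG (95% interval 1.22 to 1.29). COL27A1, a fibrillar chain of cartilage, had 634, 407, 455 and 418 normalized counts, with CTL_DMSO alone high. The cartilage chains COL2A1 (98.5, 73.3, 66.9 and 51.5) and COL11A2 (169, 156, 148 and 111) were lowest in ZNF521_SAG. For both, the interval of CTL_SAG over CTL_DMSO included 1 (0.535 to 1.03 and 0.730 to 1.16), so that this difference was not detectable at this depth.

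Of the 4 type IV genes that passed the filter, 2 were at least 1.5-fold lower in CTL_SAG, 1 in ZNF521_DMSO and 1 in ZNF521_SAG. COL4A1 and COL4A2 encode the 2 chains of the main basement membrane trimer and lie head to head on chromosome 13, from 110148963 to 110307157 (minus strand) and from 110305812 to 110513209 (plus strand), with 1346 bases of overlap in the annotation. COL4A1 had 3643 normalized counts in CTL_DMSO, 2894 in CTL_SAG, 2476 in ZNF521_DMSO and 2841 in ZNF521_SAG, a decrease of 1.26-fold, 1.47-fold and 1.28-fold. COL4A2 had 5985, 3656, 3385 and 3636, a decrease of 1.64-fold, 1.77-fold and 1.65-fold, and so was lower by more than its divergent neighbour in each library. The libraries were strand-specific, but since the strand setting of the counting is not stated, reads from their overlap cannot be assigned with certainty. COL4A5, a chain of kidney and lung basement membranes, had 742, 489, 503 and 532 normalized counts, and the 3 lower libraries lay within 1.09-fold. COL4A6, its neighbour on chromosome X, had 59.3, 53.0, 61.7 and 58.2, and each interval against CTL_DMSO included 1.

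All 3 type VI genes that passed the filter were highest in CTL_DMSO, but by less than the type I chains. COL6A1 and COL6A2 lie 93061 bases apart on the plus strand of chromosome 21. COL6A1 had 11154 normalized counts in CTL_DMSO, 7481 in CTL_SAG, 6525 in ZNF521_DMSO and 6344 in ZNF521_SAG. COL6A2 had 15416, 10832, 9665 and 9059, and the order of the libraries was the same in both genes. Without CTL_DMSO, ZNF521_SAG was still lower than CTL_SAG, with a ratio of 0.848 for COL6A1 (95% interval 0.820 to 0.877) and 0.836 for COL6A2 (0.814 to 0.860). COL6A3, the longest chain of the trimer, had 12154, 8254, 6872 and 9273 normalized counts, and departed from its partners in ZNF521_SAG, which was 1.35-fold above ZNF521_DMSO (1.31 to 1.39). In ZNF521_DMSO all 3 type VI genes were at least 1.5-fold lower than in CTL_DMSO. In ZNF521_SAG 2 were, and in CTL_SAG 0 were, where the decreases of 1.49-fold, 1.42-fold and 1.47-fold fell just short.

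FACIT genes were mixed. None of the 6 that passed the filter was 1.5-fold lower in CTL_SAG, and 2 were in each ZNF521 library. COL16A1, a chain found beside fibrils and at the surface of fibroblasts, had 774 normalized counts in CTL_DMSO, 548 in CTL_SAG, 495 in ZNF521_DMSO and 429 in ZNF521_SAG, a stepwise order in which SAG and ZNF521 each went with a lower value. COL9A2, an α2 chain of cartilage type IX collagen, had the same order (185, 144, 132 and 109). COL9A3 had 109, 95.9, 96.7 and 80.1. COL12A1, a long chain of tendon and muscle, had 486, 373, 297 and 375 and was lowest in ZNF521_DMSO, where it was 1.63-fold lower (95% interval 1.41 to 1.90).

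The other 2 FACIT genes did not have their highest value in CTL_DMSO. COL14A1, which binds fibril surfaces, had 1448 normalized counts in CTL_DMSO, 1022 in CTL_SAG, 1247 in ZNF521_DMSO and 1479.8 in ZNF521_SAG. Its value in ZNF521_SAG was within counting error of CTL_DMSO (ratio 1.02, 95% interval 0.952 to 1.10) and 1.45-fold above CTL_SAG (1.34 to 1.57). COL21A1 had 48.2 and 43.98 in the controls and 67.9 and 65.0 in the ZNF521 libraries, and the intervals of its ratios, 0.956 to 2.09 with DMSO and 0.992 to 2.23 with SAG, included 1.

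Among the remaining classes, the multiplexins COL15A1 and COL18A1 went in opposite directions. Both are basement membrane zone chains that carry sugar side chains, and the end fragment of COL18A1 is endostatin, an inhibitor of vessel growth. COL15A1 (chr9:98943179-99070792, plus strand) had 139 normalized counts in CTL_DMSO, 214 in CTL_SAG, 199 in ZNF521_DMSO and 286 in ZNF521_SAG. Each library with SAG lay above its DMSO counterpart and each ZNF521 library above its control, and ZNF521_SAG was 2.06-fold above CTL_DMSO (95% interval 1.69 to 2.53). COL18A1 had 632, 324, 449 and 335, and was lower with SAG in both kinds of cells, with ratios of 0.512 in controls (0.444 to 0.590) and 0.747 in ZNF521 cells (0.650 to 0.857). COL18A1 overlaps SLC19A1 on the opposite strand over 20149 bases, and its counts may hold reads of that gene.

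COL7A1, the chain of the anchoring fibrils below the epidermis, was likewise lower with SAG in both kinds of cells, with 1677 and 1322 normalized counts with DMSO and 1079 and 1001 with SAG. COL8A1, a short chain of vessel walls and of the membrane below the corneal endothelium, was higher with ZNF521, with 356 and 409 in the controls and 472 and 547 in the ZNF521 libraries. The ratio was 1.33 (95% interval 1.15 to 1.53) with DMSO and 1.34 (1.17 to 1.52) with SAG. COL8A2, its partner, had 174, 144, 184 and 171 in the order used above, and both intervals of ZNF521 over its control included 1.

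COL17A1, a transmembrane chain of hemidesmosomes, had 50.3 and 36.1 normalized counts in the controls and 74.1 and 56.5 in the ZNF521 libraries. These values were higher with ZNF521 and lower with SAG, but the gene passed the filter mainly through the ZNF521 libraries, so that they are a description. COL25A1, a transmembrane chain first isolated from amyloid plaques, was the steadiest of the 30 genes outside CTL_DMSO (403, 419 and 425). Its value in CTL_DMSO was 460.4, and each interval against CTL_DMSO included 1. COL26A1, which belongs to none of the classes, had 188, 150.0, 139 and 103, with the lowest value where ZNF521 and SAG were combined.

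The 14 genes below the filter were COL4A3 and COL4A4 of type IV, COL6A5 and COL6A6 of type VI, COL11A1 and COL24A1 of the fibrillar class, COL9A1, COL19A1, COL20A1 and COL22A1 of the FACIT class, COL10A1, COL13A1, COL23A1 and COL28A1. Their means ran from 2.41 (COL22A1) to 45.3 (COL24A1) normalized counts, and CTL_DMSO was the highest library in 5 of them. COL22A1 was at 0 in ZNF521_DMSO, where a count of 0 allows up to 3 counts. COL4A4 (23.1 in CTL_DMSO, 7.20 in ZNF521_DMSO) and COL23A1 (25.1 in CTL_DMSO, 11.8 in ZNF521_SAG) each had 1 interval against CTL_DMSO that excluded 1.

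Not all chains that share a trimer kept their ratio. Per kilobase, COL1A1 was 1.5 times COL1A2 in CTL_DMSO (95% interval 1.46 to 1.54) and 0.874, 0.870 and 0.938 times in CTL_SAG, ZNF521_DMSO and ZNF521_SAG, and the intervals of these 3 ended at 0.972 or lower. Type I collagen is mostly built of 2 COL1A1 chains and 1 COL1A2 chain. COL5A1 was 3.23 times COL5A2 in CTL_DMSO (3.09 to 3.38) and 1.63 to 1.89 times in the others. The ratio of COL4A1 to COL4A2 was 0.600 in CTL_DMSO (0.575 to 0.625) and 0.721 to 0.780 elsewhere. In contrast, COL6A1 to COL6A2 stayed between 0.553 and 0.593 in all 4 libraries, and COL6A3 to COL6A1 between 0.420 and 0.440 in 3 of them, with 0.583 in ZNF521_SAG. Transcript GC content was 61.5% for COL1A1 and 54.5% for COL1A2, and 60.2% for COL5A1 and 48.3% for COL5A2. It was 55.2% for COL4A1 and 61.8% for COL4A2. Among type VI chains it was 63.5% (COL6A1), 66.4% (COL6A2) and 53.1% (COL6A3). The ratios were not adjusted for GC content, and its part in them was not tested.

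**Figure D3:**
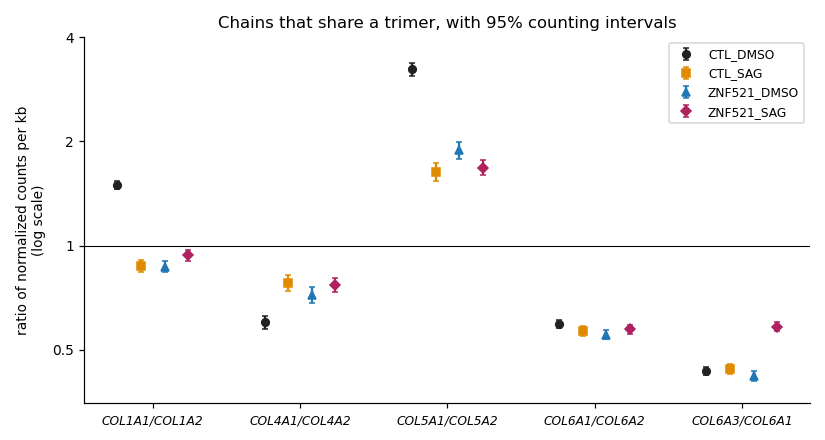
Ratio of normalized counts per kilobase (log scale) for 5 pairs of chains that share a trimer, with exact 95% counting intervals, in each of the 4 libraries. CTL_DMSO stands apart for the type I, IV and V pairs (1.5, 0.600 and 3.23), and ZNF521_SAG stands apart for COL6A3 over COL6A1 (0.583).

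Collagen transcripts were rich in G and C, and the ratios of all genes followed GC content. The canonical transcripts of the 30 genes had a median GC content of 60.8% (40.8 to 67.4%) against 48.2% over all genes of the filter with a transcript, and 16 of the 30 lay in the highest GC quintile. In that quintile the median log2 ratio of all genes was -0.26 in CTL_SAG, -0.10 in ZNF521_DMSO and -0.29 in ZNF521_SAG, while it was 0.42, 0.29 and 0.42 in the lowest. In the highest quintile, the collagen medians were -0.54, -0.53 and -0.79. When the median of genes with like GC content was subtracted, the collagen genes at least 1.5-fold lower numbered 7 of 30 in CTL_SAG, 9 in ZNF521_DMSO and 6 in ZNF521_SAG, where 4.83%, 4.87% and 4.32% of all genes were. For ZNF521_SAG the 16 genes thus became 6, all of them fibrillar, namely COL1A1, COL1A2, COL2A1, COL3A1, COL5A1 and COL5A3. Genes of other classes remained in CTL_SAG, namely COL14A1 (-0.63) and COL18A1 (-0.64). In ZNF521_DMSO, COL4A2 (-0.70), COL6A1 (-0.65), COL6A3 (-0.75) and COL12A1 (-0.71) remained beside the fibrillar genes. The log2 ratio of COL1A1 became -1.45, -1.52 and -1.32 instead of -1.70, -1.60 and -1.58. The type VI genes came closer to 0, with COL6A2 at -0.19 in CTL_SAG instead of -0.51. COL15A1 remained above 0, at 0.79, 0.62 and 1.19.

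**Figure D4:**
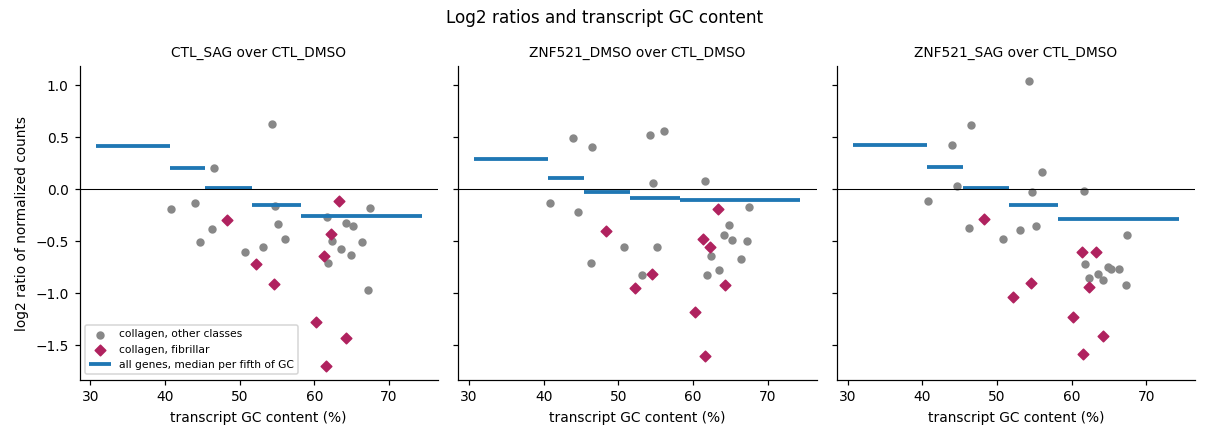
Log2 ratio over CTL_DMSO of the 30 collagen genes against the GC content of the canonical transcript, with fibrillar genes as diamonds and the median of all genes in each quintile of GC content as a bar. The bars fall from 0.42 to -0.26 in CTL_SAG, from 0.29 to -0.10 in ZNF521_DMSO and from 0.42 to -0.29 in ZNF521_SAG, and most collagen genes lie below the bar of their quintile.

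The study asked what ZNF521 changes with and without Hedgehog activation, and what SAG changes in both kinds of cells. For this, each factor was tested across both levels of the other with edgeR's quasi-likelihood F-test, over 14970 genes, 36 of them collagen genes. The fit has 1 residual degree of freedom and takes the effects of ZNF521 and SAG to add, so that each effect was tested against the departure of the 4 libraries from that sum, moderated across genes by a prior of 11.7 degrees of freedom. No collagen gene passed an adjusted p (Benjamini-Hochberg) of 0.05 for ZNF521, where 0.00668% of all genes did, or for SAG, where 0.0401% did. With p taken unadjusted at 0.05 or less, 10 collagen genes were lower with ZNF521, beside 3.11% of all genes, and 3 were higher, beside 2.36%. With SAG, 8 were lower, beside 5.12%, and 1 was higher, beside 6.21%. DESeq2 gave 4 lower and 0 higher in each comparison, and again 0 at the adjusted threshold. Of all 14970 genes, DESeq2 had 92 lower and 75 higher for ZNF521, and 155 lower and 269 higher for SAG, unadjusted.

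For ZNF521, the 10 lower genes were COL3A1, COL16A1, COL6A1, COL6A2, COL26A1, COL1A1, COL5A1, COL9A2, COL2A1 and COL4A2, and the 3 higher genes were COL15A1, COL8A1 and COL17A1. COL3A1 had the smallest p, with a log2 fold change of -0.65 (SE 0.19), an unadjusted p of 0.00537 and an adjusted p of 0.744 by edgeR. COL8A1 had a log2 fold change of 0.40 (SE 0.16) and COL17A1 of 0.59 (SE 0.26). For SAG, the 8 lower genes were COL18A1, COL7A1, COL5A3, COL5A1, COL1A1, COL1A2, COL16A1 and COL27A1, and COL15A1 was higher. COL18A1 had a log2 fold change of -0.69 (SE 0.18), an unadjusted p of 0.00196 and an adjusted p of 0.391 by edgeR. COL15A1 had log2 fold changes of 0.45 (SE 0.18) for ZNF521 and 0.57 (SE 0.18) for SAG, higher in both pairs of libraries each time, with adjusted p values of 0.893 and 0.391 by edgeR. In fits that left out 1 library and the other factor, these were 0.19 and 0.34 without CTL_DMSO, 0.80 and 0.76 without CTL_SAG, 0.70 and 0.85 without ZNF521_DMSO, and 0.16 and 0.35 without ZNF521_SAG.

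Several of these estimates rested on CTL_DMSO. With 3 libraries the other factor had to be dropped from the fit, so that 1 library stood against 2, the spread came from those 2 and from the prior, and the lone library was assumed to vary like them. Without CTL_DMSO, 1 collagen gene was lower with ZNF521 at p of 0.05 or less, unadjusted (COL3A1), beside 1.59% of all genes, and 2 were higher (COL14A1 and COL17A1), beside 2.53%. With SAG 3 were lower (COL7A1, COL17A1 and COL18A1), beside 7.26%, and 3 were higher (COL4A1, COL6A3 and COL12A1), beside 7.56%. With 35 collagen genes tested, both SAG counts are near the share of all genes. For ZNF521, the estimate of COL1A1 was -0.76 in the additive fit, -0.99 with treatment dropped and 0.11 with CTL_DMSO left out as well. That of COL5A1 was -0.58, -0.72 and 0.079, and that of COL4A2 was -0.43, -0.47 and -0.053. For SAG, leaving out CTL_DMSO brought COL1A1 to -0.040, COL5A1 to -0.083, COL1A2 to -0.099 and COL16A1 to -0.034. COL18A1 stayed at -0.45 for SAG, and COL3A1 at -0.28 for ZNF521. Leaving out CTL_SAG, which sets CTL_DMSO alone against both ZNF521 libraries, brought 21 collagen genes past the adjusted threshold for ZNF521 by edgeR, and leaving out ZNF521_DMSO brought 20 past it for SAG. In those fits 2340 and 4513 of all genes passed, and CTL_DMSO, the lone library in both, had no replicate check.

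**Figure D5:**
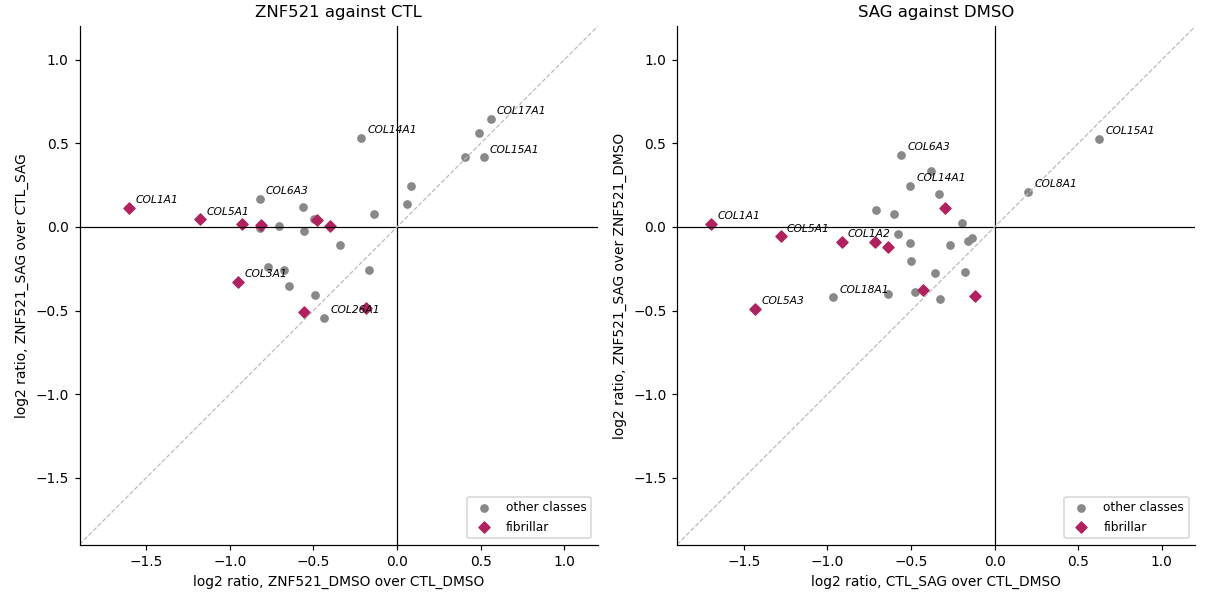
Log2 ratios of the 30 collagen genes at the 2 levels of the other factor, for ZNF521 against CTL (left, DMSO on the horizontal axis and SAG on the vertical) and for SAG against DMSO (right, CTL cells on the horizontal axis and ZNF521 cells on the vertical), with fibrillar genes as diamonds and the line of equal effects dashed. COL1A1 lies at -1.60 and 0.11 on the left and at -1.70 and 0.02 on the right, and COL15A1 lies near the dashed line in both panels.

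Marker lists of cell types were read beside these values. The 9 mesenchymal genes summed to 101426 normalized counts in CTL_DMSO and 64778 to 69653 in the other libraries, mostly through fibronectin (FN1), a matrix protein with 66824 in CTL_DMSO and 33515 to 35242 elsewhere. Vimentin had 29381 in CTL_DMSO and 25013 to 29673 elsewhere, so that the list did not move as a whole. The 5 chondrocyte genes summed to 968 in CTL_DMSO and 776 to 880 elsewhere, of which SOX9 held 938 and 733 to 833, and aggrecan (ACAN) was at 0.844 to 8.04. The 8 neuronal genes summed to 889 and 791 to 814, mostly through ZIC1, ZIC2 and PAX6, and the 4 endothelial genes to 171 and 136 to 179. The part of these differences in the collagen values was not tested. In bulk RNA, fewer cells that express a gene and less RNA per cell cannot be told apart.

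Genes that make, export, process, bind and degrade collagen were read from 6 lists of 71 genes, of which 67 were tested. No gene of the lists passed the adjusted threshold in either comparison. With p unadjusted at 0.05 or less, 9 were lower and 1 was higher with ZNF521, beside 3.11% and 2.36% of all genes. With SAG 3 were lower and 5 higher, beside 5.12% and 6.21%, so that the SAG counts are near those of all genes. All 6 cross-linking genes had negative estimates for ZNF521, where the median estimate of all 14970 genes was -0.0034. The 2 past the unadjusted threshold were LOXL1 and LOXL2. LOXL2 had 1655, 863, 827 and 913 normalized counts in CTL_DMSO, CTL_SAG, ZNF521_DMSO and ZNF521_SAG, and so was high in CTL_DMSO alone. LOXL1, a lysyl oxidase-like enzyme, had 3263, 2001, 1530.1 and 1239 normalized counts in CTL_DMSO, CTL_SAG, ZNF521_DMSO and ZNF521_SAG and a log2 fold change of -0.90 (SE 0.16, adjusted p 0.178 by edgeR). ADAMTS2, which removes the amino-terminal propeptide of procollagen, had 693, 492, 345 and 305 and a log2 fold change of -0.86 (SE 0.17, adjusted p 0.368 by edgeR). CREB3L1, a membrane-bound transcription factor that drives the genes of collagen secretion, had 187, 68.8, 75.1 and 62.4 normalized counts, high in CTL_DMSO alone like COL1A1. It was the 1 gene of 12 in the secretion list past the unadjusted threshold in both comparisons, with log2 fold changes of -0.79 (SE 0.28) for ZNF521 and -0.88 (SE 0.28) for SAG.

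In the list of 19 modification and folding genes, 0 passed the unadjusted threshold with ZNF521 and 3 were higher with SAG (P4HA1, PLOD2 and TMEM38B), where the shares of all genes were those given above. P4HA1, a subunit of the enzyme that hydroxylates prolines of collagen, had 857 and 959 normalized counts with DMSO and 1177 and 1238 with SAG. The procollagen C-proteinase BMP1 was lower with ZNF521 (log2 fold change -0.43, SE 0.16), with 671, 567, 491 and 434 normalized counts. Among 11 tested receptors, ITGA11, DDR1 and ADGRG1 were lower with ZNF521 at the unadjusted threshold, and ITGA1 and ITGA2 were higher and GP6 lower with SAG. Among 10 tested breakdown genes, MMP2 was lower (4003, 2484, 2257 and 2371 normalized counts) and MMP9 higher (28.1, 38.3, 67.9 and 50.6) with ZNF521. Like COL1A1, MMP2 and ITGA11 (218, 131, 113 and 114 normalized counts) were high in CTL_DMSO alone. DDR1, ITGA2 and GP6 were named after their values were seen.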

How the data were processed

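Messenger RNA of 4 DAOY cultures was read, 1 library per group, grouped by sample title. Per the labels, the authors used STAR 2.7.0e with build hg38 for alignment and gene counts. The deposited raw table holds these counts for 20363 genes. The deposited normalized signal values are counts that the authors divided by DESeq2 median-of-ratios size factors. Libraries were strand-specific per the labels. Annotation, the strand setting of the counting and read filters are not given in the sources used here.

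Genes reaching 10 counts in 2 or more libraries were fitted in edgeR 4.0.16 in R 4.3.3 (TMM, glmQLFit, glmQLFTest) with ZNF521 and treatment as additive terms (prior degrees of freedom 11.7). Ratios of libraries, with exact 95% Clopper-Pearson intervals from Python 3.11.15 and scipy 1.17.1, were read at 1.5-fold over genes whose normalized counts averaged 50 or more. Alternatives included DESeq2 1.42.0 and limma 3.58.1 with a prior count of 2. Positions, lengths and GC content came from GENCODE for hg38, which matched 19803 of the 20363 symbols (97.2%). All members above the mean of 50 were named, with up to 3 genes per pathway list by smallest unadjusted p. The scripts were tested on simulated data. Members and lists were chosen with earlier results of these data known. Of the 71 pathway genes, 4 were not tested here.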

Additional observations from a re-analysis of the deposited data

Results flagged for a closer look

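For 7 of 30 collagen genes, beside 10.9% of the 12094 genes read by the same rule, a factor went with a lower value at one level of the other factor and with a higher value at the other level, with counting intervals that excluded a ratio of 1 at both levels. With 1 library per group the difference between the levels was not tested, and CTL_DMSO enters 1 of the ratios each time. The rule was met by 3 collagen genes for ZNF521, beside 7.11% of all genes, and by 6 for SAG, beside 6.42%. With 30 collagen genes read, the ZNF521 count is near the share of all genes. Counting intervals are narrower at higher counts, so that abundant genes meet the rule with smaller differences. COL1A1 met it with a 1.08-fold difference between ZNF521_SAG and CTL_SAG. For ZNF521 against CTL, the log2 ratio with DMSO and with SAG was -1.60 and 0.11 for COL1A1, -0.82 and 0.17 for COL6A3, and -0.22 and 0.53 for COL14A1. For SAG against DMSO, the log2 ratio in CTL cells and in ZNF521 cells was -0.33 and 0.20 for COL4A1, -0.71 and 0.10 for COL4A2, and -0.29 and 0.11 for COL5A2. It was -0.56 and 0.43 for COL6A3, -0.38 and 0.34 for COL12A1, and -0.50 and 0.25 for COL14A1.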

How the results depend on the processing

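TMM factors, total counts and the filter of 10 counts in 2 libraries left every count at 1.5-fold within 1.5 times its value. At 2-fold, the lower genes numbered 3 in CTL_SAG, 2 in ZNF521_DMSO and 4 in ZNF521_SAG, beside 1.54%, 1.22% and 1.46% of all genes. The higher genes numbered 0 in CTL_SAG, 0 in ZNF521_DMSO and 1 in ZNF521_SAG, beside 0.984%, 0.67% and 0.992%. With transcript GC content, ZNF521_DMSO had 2 higher genes, beside 2.31% of all genes. ZNF521_SAG had 6 lower, beside 4.32%, and 1 higher, beside 2.04%. Without CTL_DMSO, SAG against DMSO in ZNF521 cells had 0 lower and 0 higher genes, and ZNF521 against CTL in SAG had 0 lower and 1 higher. Without COL1A1 and COL1A2, the collagen share was 0.654%, 0.413%, 0.379% and 0.389% in CTL_DMSO, CTL_SAG, ZNF521_DMSO and ZNF521_SAG. The last 2 alternatives were chosen after seeing the data.

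RLE factors, library size alone, a mean count of at least 50 and limma left the counts of called collagen genes within 1.5 times those of edgeR with TMM. In the edgeR fits, no filter on low counts gave 2 adjusted calls for ZNF521 (COL1A1 and COL3A1) and 4 for SAG (COL1A1, COL5A1, COL5A3 and COL18A1). Of all 20363 genes, 100 and 223 then passed, where 1 and 6 of 14970 did with the filter. At the unadjusted threshold, DESeq2 gave 4 lower and 0 higher for each factor. Of all 14970 genes it gave 92 lower and 75 higher for ZNF521, and 155 and 269 for SAG. The edgeR fit with TMM pairs libraries by treatment or by vector. Without that block, ZNF521 had 6 lower and 0 higher collagen genes, and SAG had 3 lower and 1 higher. Of all 14970 genes, 281 were then lower and 163 higher for ZNF521, and 624 and 780 for SAG. Leaving out each library in turn, with the other factor dropped, gave 0 to 21 adjusted calls, 1 to 20 lower and 0 to 2 higher for ZNF521, and 0 to 20, 1 to 21 and 0 to 3 for SAG. Of the 22 estimates of genes past the unadjusted threshold, 2 changed sign, both without CTL_DMSO, for ZNF521, with a range over the libraries left out of -1.61 to 0.11 for COL1A1 and -1.22 to 0.079 for COL5A1. The cause was not tested. For COL4A6, COL8A2, COL21A1 and COL25A1, the intervals against CTL_DMSO all included 1, so that no difference was detectable at this depth.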
